A study of Mus musculus with 12 samples.

Results

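Testes of 2 mice at postnatal day (PND) 28 were compared with testes of 2 mice at PND 21, so that 4 of the 10 mice of the study were compared. The mice of the other ages entered the same fit and its estimate of the spread. The study sequenced RNA of whole testes, depleted of ribosomal RNA, on the SOLiD 4 platform. It covered 5 ages of the first wave of spermatogenesis, PND 7, 14, 17, 21 and 28, with 2 mice at each age. All were C57BL/6NHsd males with no treatment or allele named, so age is the difference that the labels give, and the study's methods give 2 mice per age and whole testes, with no sorting of cells. Library and run batches are not given in the sources used here and cannot be told apart from age. Age is the only selection rule, and no measured value was used to choose the samples.

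In the mouse, round spermatids form when meiosis ends, near the third week after birth in the first wave. They then elongate: the acrosome spreads over the nucleus, the manchette shapes the head, the tail is built, and histones are exchanged for transition proteins and then protamines, which silence the genome. Much of the mRNA for these late steps is made early and stored. In the same weeks adult Leydig cells, which make testosterone between the tubules, take the place of the fetal population, while Sertoli cells, the somatic nurse cells of the tubules, no longer divide.

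Exonic read counts summed to 4018007 and 6280587 for the PND 21 mice and to 8830079 and 5150882 for the PND 28 mice. A total of 3 counts, the level that a count of 0 still allows, corresponded to 0.409 to 0.716 CPM. CPM gives the counts of a gene relative to the library total after trimmed mean scaling. The 2 mitochondrial ribosomal RNAs held 17.0% and 27.1% of the counts at PND 21 but 14.9% and 15.3% at PND 28. Levels are given below in RPKM, read counts relative to exon length and library total, in the order mouse 1 and mouse 2 of each age, and fold changes come from the counts (edgeR quasi-likelihood test over all 10 mice, with trimmed mean scaling). A gene was called where the Benjamini-Hochberg adjusted p was under 0.05 and the change at least 2-fold. An exact permutation test needs more than 2 mice a group to reach 0.05, so each call rests on the spread shared across genes and ages.

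The PND 28 testis gained transcripts far more often than it lost them. Of 16860 genes tested, 7.66% were called, 7.37% (1242 genes) higher and 0.297% (50 genes) lower at PND 28. The median log2 fold change was 2.65 among the higher genes and fell by 1.42 on the log2 scale among the lower genes, against 0.03 for all genes tested. At least 8-fold rises were fitted for 503 genes and at least 64-fold rises for 110, whereas 1 lower gene, the X-linked Bex2, passed 4-fold. The higher genes together held 4.28% and 3.58% of all counts at PND 21 and 14.1% and 14.3% at PND 28. Both PND 28 mice lay above both PND 21 mice in 32.9% of the tested genes and below them in 22.9%. When the counts were scaled by library totals instead, the median of all genes moved from 0.03 to −0.19, and the calls became 822 higher and 113 lower. Leaving out 1 of the 4 mice at a time gave fewer calls. The genes named below were followed under 12 alternative settings, these fits among them. A call lost under any of the 12 is given below with its adjusted p or its fold. The study's tool limma, other filters on low counts, the stricter p limit and the fit without a fold minimum were not among the 12. A gene with no loss given may therefore not be called under those. Bex2 itself was lost without any 1 of the 4 mice (adjusted p from 0.0524 to 0.204, edgeR) and with the mouse number as a block (0.0576).

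**Figure D1:**
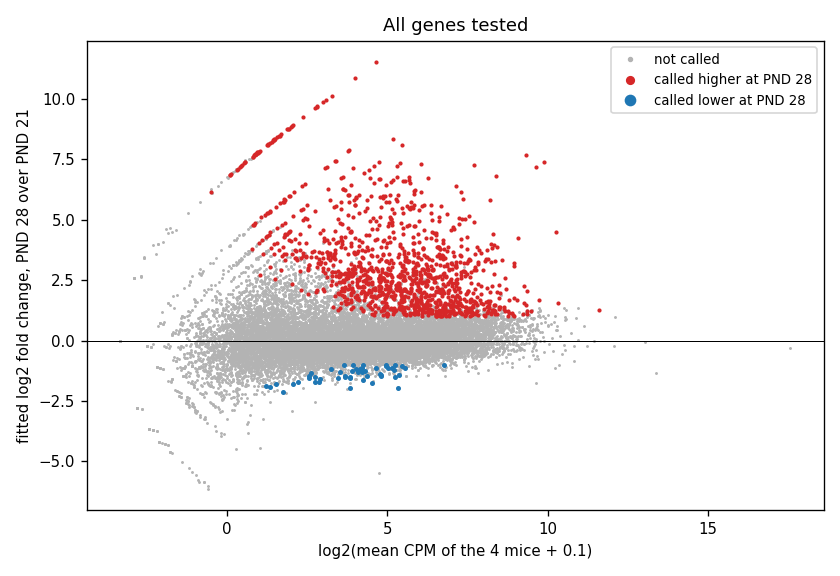
Fitted log2 fold change of PND 28 over PND 21 (vertical axis) against log2 of the mean CPM of the 4 mice plus 0.1 (horizontal axis), 1 point per gene tested. Red points are the 1242 genes called higher and blue points the 50 called lower; the red points reach far larger fold changes than the blue ones, and the diagonal lines of points at the left are genes with 0 or a few counts in 1 age.

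The genes called higher were mostly faint before PND 21. Their median level was 0.4 and 0 CPM in the PND 7 mice, 1.6 and 1.45 CPM at PND 17, 11.9 and 10.4 CPM at PND 21 and 72.7 and 73.8 CPM at PND 28. In 54 of them neither PND 21 mouse had a count, and in 10 no mouse younger than PND 28 had one. Those 10 could pass the expression filter only through the PND 28 mice, so their direction was fixed in advance. The genes called lower declined over the whole series, from medians of 55.2 and 62.9 CPM at PND 7 to 23.7 and 21.2 CPM at PND 21 and 9.88 and 9.58 CPM at PND 28. PND 14 mouse 1 stood apart from its partner in the spermatid genes: its median over the higher genes was 4.29 CPM against 1.31 CPM in mouse 2, and it held Prm1 at 133 RPKM against 2.46 RPKM. It entered this comparison only through the shared spread, and without it the calls were 1330 higher and 81 lower.

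Of the gene lists examined, the one of proteins that pack the sperm nucleus had the highest median change. All 7 tested genes of this list rose, with a median log2 fold change of 7.20, and their summed level went from 128 and 120 RPKM to 9075 and 11050 RPKM. Prm1, which encodes protamine 1, stood at 12.9 and 13.2 RPKM in the PND 21 mice and reached 2088 and 2532 RPKM in the PND 28 mice. Tnp1, which encodes transition protein 1, was the most abundant of them, going from 27.8 and 25.3 RPKM to 3238 and 4380 RPKM. The PND 28 mice lay more than 100 times above the PND 21 mice for both genes, while the mice of 1 age differed by less than 1.4 times. The log2 fold change was 7.68 ± 1.28 for Prm1 (SE of the fit, n = 2 mice per age, adjusted p = 0.00525, edgeR). For Tnp1 it was 7.39 ± 1.15 (adjusted p = 0.00334, edgeR). This SE rests on the mice of all ages in the fit, not on the PND 21 and PND 28 mice alone. The PND 14 mice were far apart, with 133 and 2.46 RPKM for Prm1 and 158 and 5.17 RPKM for Tnp1. The part of that pair in the SE and in the calls lost below was not tested. Without PND 21 mouse 1 or mouse 2 the adjusted p (edgeR) became 0.0771 and 0.0783 for Prm1 and 0.0536 and 0.0613 for Tnp1, with the fold change still upward.

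Prm2, the gene of the second protamine, rose from 5.72 and 3.16 RPKM to 542 and 599 RPKM (log2 fold change 7.28 ± 1.19, adjusted p = 0.00495). Tnp2, the gene of transition protein 2, rose from 15.2 and 23.1 RPKM to 2314 and 2645 RPKM (7.20 ± 0.94, adjusted p = 0.00194). H1fnt, a spermatid linker histone also known as H1T2, rose from 4.95 and 3.43 RPKM to 198 and 214 RPKM. In these 3 genes too every PND 28 mouse was far above both PND 21 mice. Hils1, another spermatid linker histone, was already at 53.0 and 47.8 RPKM at PND 21 and reached 630 and 605 RPKM (log2 fold change 3.84 ± 0.66, adjusted p = 0.00635). Prm3, the protamine-like neighbour of Prm2, had the smallest rise of the list, from 8.68 and 4.39 RPKM to 64.9 and 80.1 RPKM (3.74 ± 0.76, adjusted p = 0.0145). Calls for Prm2 and Hils1 were lost without either PND 21 mouse (adjusted p from 0.0642 to 0.0796, edgeR), that for H1fnt without PND 21 mouse 2 (0.0611), and that for Prm3 without any 1 of the 4 mice (0.0881 to 0.13) and by DESeq2 (adjusted p = 0.161). The Tnp2 call was kept in each of the 12 alternatives run for single genes.

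Prm1, Prm2, Prm3 and Tnp2 lie within 8951 bases of chromosome 16 (mm9, chr16:10788029-10796979), and Tnp1 lies on chromosome 1 (mm9, chr1:73061657-73062473). The 250 bases before the transcript starts of 4 of these genes are shown because they had the highest fold changes of the list and rose together. They come from RefSeq (GRCm38.p6, all on the minus strand: Prm1 chr16:10796824-10797073, Prm2 chr16:10792106-10792355, Tnp1 chr1:73015900-73016149, Tnp2 chr16:10788656-10788905) and are written 5′ to 3′ along the gene. Capitals mark TATAA, the core of the TATA box, and TGANNTCA, the outer letters of the cyclic AMP response element (TGACGTCA), which the spermatid activator CREM binds; both were searched on both strands.
Prm1: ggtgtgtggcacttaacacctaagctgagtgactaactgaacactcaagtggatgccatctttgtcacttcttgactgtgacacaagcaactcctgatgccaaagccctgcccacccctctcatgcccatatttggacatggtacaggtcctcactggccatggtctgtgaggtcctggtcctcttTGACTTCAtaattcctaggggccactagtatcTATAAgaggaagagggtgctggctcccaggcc
Prm2: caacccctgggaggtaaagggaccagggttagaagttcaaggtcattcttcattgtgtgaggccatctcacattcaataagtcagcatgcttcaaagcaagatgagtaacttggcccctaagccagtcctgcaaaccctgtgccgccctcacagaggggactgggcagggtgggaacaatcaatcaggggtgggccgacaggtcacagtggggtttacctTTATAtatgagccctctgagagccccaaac
Tnp1: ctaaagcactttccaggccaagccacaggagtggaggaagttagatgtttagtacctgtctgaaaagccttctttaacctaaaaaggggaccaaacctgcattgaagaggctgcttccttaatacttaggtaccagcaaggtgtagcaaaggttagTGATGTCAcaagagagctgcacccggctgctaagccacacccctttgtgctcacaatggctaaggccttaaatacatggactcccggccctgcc
Tnp2: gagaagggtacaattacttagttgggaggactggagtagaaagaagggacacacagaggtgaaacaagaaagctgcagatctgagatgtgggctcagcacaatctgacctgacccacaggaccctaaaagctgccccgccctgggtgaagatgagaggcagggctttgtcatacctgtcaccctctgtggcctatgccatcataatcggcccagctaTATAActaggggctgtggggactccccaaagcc

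The full element TGACGTCA occurred in none of the 4. Prm1 carried TGACTTCA from base 64 before the start and TATAA from base 32, Prm2 a TATAA on the other strand from base 30, Tnp1 TGATGTCA from base 94, and Tnp2 TATAA from base 33. Prm3 held TGAGGTCA from base 60, and Hils1 held neither pattern. A RefSeq entry was matched for 12433 of the 16860 tested genes and for 967 of the genes called higher. In these windows TGACGTCA was present in 2.94% of tested genes and 3.62% of higher genes. TGANNTCA, a pattern chosen after the Prm1 and Tnp1 sequences had been read, was present in 11.9% of tested genes, in 26.9% of higher genes (260 of 967), in 35.9% of genes with at least 8-fold rises (136 of 379) and in 4.76% of lower genes (2 of 42). The form found before Tnp1, TGATGTCA or its reverse complement TGACATCA, was in 2.82% of tested and 12.1% of higher genes, the Prm3 form TGAGGTCA or TGACCTCA in 1.95% and 6.41%, and the Prm1 form TGACTTCA or TGAAGTCA in 1.28% and 2.38%. Of 3 patterns made by rearranging or spacing the same outer letters, TCANNTGA was in 6.54% of tested, 7.24% of higher and 9.23% of at least 8-fold higher genes, ACTNNAGT in 5.41%, 7.76% and 11.3%, and TGANNNTCA in 5.41%, 8.58% and 10.8%.

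The windows also differed in composition. Their median G+C content was 59.2% over tested genes and 53.2% over higher genes, and the median number of CG dinucleotides was 15 and 6. Among windows with at most 6 CG dinucleotides, TGANNTCA was in 19.5% of 2565 tested genes and 36.3% of 491 higher genes, and among the others in 9.95% of 9868 and 17.2% of 476. TATAA was in 15.8% of tested and 21.5% of higher genes. These shares describe letters in a window and were not tested.

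Around the exchange itself, H2afb1, a short histone variant of late spermatids, had 0 and 0.62 RPKM (0 and 2 counts) at PND 21 and 49.9 and 48.9 RPKM at PND 28 (log2 fold change 7.15 ± 1.28, adjusted p = 0.0076, edgeR). Tssk6, a kinase needed for the histone exchange, went from 0.19 and 1.1 RPKM to 53.2 and 75.8 RPKM (6.66 ± 0.88, adjusted p = 0.00158). Cdyl, a chromodomain protein of condensing spermatids, rose from 9.01 and 10.8 RPKM to 55.4 and 71.2 RPKM (2.88 ± 0.25, adjusted p = 0.000198). In all 3 genes the ages did not overlap. These were the 3 higher genes among 22 histone variant and replacement genes tested (13.6%, against 7.37% of all genes tested). The median of the list was 0.26. Hist1h2ba, the testis form of histone H2B, was abundant at both ages with 1552 and 2242 RPKM against 1716 and 1578 RPKM (log2 fold change 0.00 ± 0.33). The H2afb1 call was lost without either PND 21 mouse or PND 28 mouse 1 (adjusted p from 0.0635 to 0.0827, edgeR) and by DESeq2 (0.105).

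**Figure D2:**
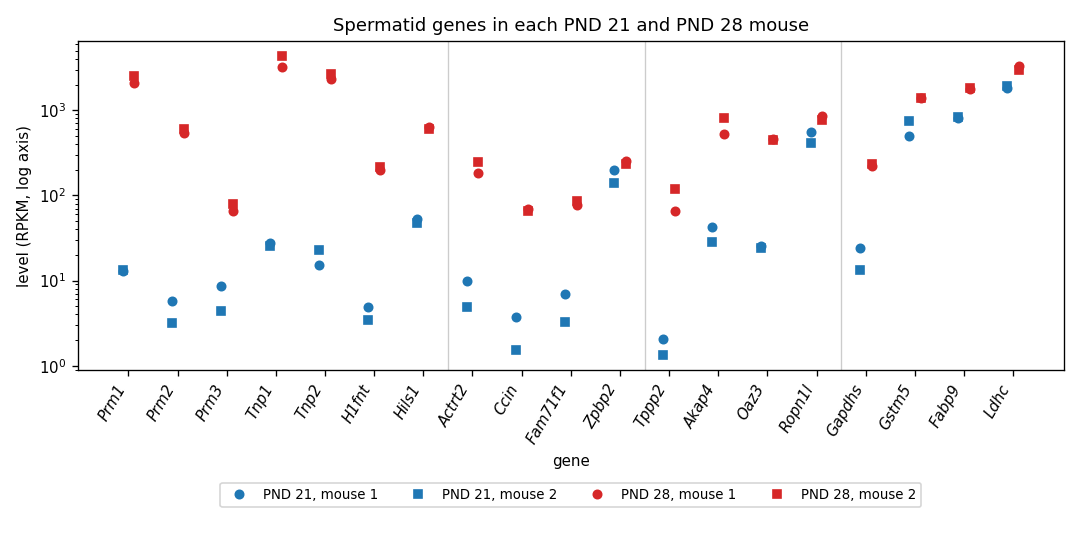
Level in RPKM (log axis) of 19 spermatid genes in each mouse, blue for PND 21 and red for PND 28, with circles for mouse 1 and squares for mouse 2. From left to right the blocks hold nuclear packing proteins, acrosome and theca genes, tail genes and energy genes; Prm1, Prm2, Tnp1 and Tnp2 have the widest gaps between ages, and Zpbp2, Ropn1l and Ldhc the narrowest.

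Genes of the acrosome, the vesicle of enzymes over the sperm head, and of the perinuclear theca beneath it split by level. Of 37 tested, 17 rose, none fell and the median log2 fold change was 2.13. Actrt2, an actin-related protein of the theca, rose from 9.82 and 4.86 RPKM to 181 and 249 RPKM (log2 fold change 5.14 ± 0.88, adjusted p = 0.00594). Ccin, which encodes calicin of the theca, rose from 3.73 and 1.52 RPKM to 69.0 and 66.4 RPKM (4.98 ± 0.68, adjusted p = 0.00182). Both PND 28 mice stood above both PND 21 mice, as they did for Fam71f1, with 6.98 and 3.3 RPKM against 77 and 85.1 RPKM. The most abundant members by PND 21 did not pass the test: Dkkl1, an acrosomal protein, stood at 271 and 277 RPKM against 487 and 455 RPKM (1.00 ± 0.32, adjusted p = 0.0895), and Zpbp2, a zona-binding protein, at 198 and 141 RPKM against 251 and 235 RPKM (0.76 ± 0.38, adjusted p = 0.259). Acr, which encodes the protease acrosin, overlapped between the ages, with 59.3 and 25.5 RPKM against 57.8 and 61.5 RPKM. Actrt2 lost its call without PND 21 mouse 1 or mouse 2 (adjusted p = 0.0597 and 0.086, edgeR), and Fam71f1 without any 1 of the 4 mice (0.056 to 0.0999) and by DESeq2 (0.118).

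Among 28 tested genes for binding and fusing with the egg, 16 rose, none fell and the median was 2.35. Calr3, a testis chaperone that folds sperm surface proteins, rose from 1.29 and 1.33 RPKM to 16.9 and 24.8 RPKM (log2 fold change 4.19 ± 0.42, adjusted p = 0.000485). Izumo1, the sperm ligand for fusion with the egg, rose from 5.4 and 3.86 RPKM to 28.2 and 27.6 RPKM (2.83 ± 0.48, adjusted p = 0.00462). Ace, whose testis form is an angiotensin-converting enzyme on the sperm surface, rose from 9.26 and 9.81 RPKM to 55.3 and 67.9 RPKM (2.91 ± 0.25, adjusted p = 0.000196). The ages were apart in each, by more than the spread between mice. Adam2, a subunit of fertilin, was high and close at both ages, with 264 and 228 RPKM against 291 and 266 RPKM, whereas Adam3, needed for sperm to bind the zona, rose from 248 and 198 RPKM to 577 and 534 RPKM (1.55 ± 0.40, adjusted p = 0.0392). Crisp2, a cysteine-rich sperm protein, reached 1328 and 1323 RPKM from 628 and 595 RPKM without passing the test (1.34 ± 0.37, adjusted p = 0.0556). The Izumo1 call was lost without PND 21 mouse 2 (adjusted p = 0.0675, edgeR), and the Adam3 call without any 1 of the 4 mice (0.122 to 0.205) and under library totals (0.0791).

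In the tail, genes of the sheaths and of the axoneme, its microtubule core, were listed apart. Of 29 genes of the outer dense fibres, fibrous sheath and mitochondrial sheath, 16 rose and the median was 2; of 38 axoneme genes, 4 rose (10.5%, against 7.37% of all genes tested) and the median was 0.50; none fell in either list. The difference between the lists was not tested. Akap4, the main protein of the fibrous sheath and X-linked, rose from 42.5 and 28.1 RPKM to 530 and 802 RPKM (log2 fold change 4.48 ± 0.96, adjusted p = 0.0186). Odf1, of the outer dense fibres, rose from 42.7 and 28.1 RPKM to 437 and 488 RPKM (3.95 ± 0.69, adjusted p = 0.00525). Oaz3, a spermatid antizyme, rose from 25.4 and 24.0 RPKM to 456 and 452 RPKM, and Tppp2, a tubulin-binding protein, from 2.04 and 1.32 RPKM to 64.9 and 118 RPKM. No PND 21 mouse reached the lower PND 28 mouse in any of these. Smcp, of the mitochondrial capsule, had a wide spread at PND 21 with 33.5 and 7.6 RPKM against 133 and 256 RPKM and was not called (3.54 ± 0.96, adjusted p = 0.0514). Akap4 lost its call without any 1 of the 4 mice (adjusted p from 0.0629 to 0.143, edgeR), and Odf1, Oaz3 and Tppp2 without either PND 21 mouse (0.0506 to 0.0796).

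The axoneme list was led by Tctex1d1, a dynein light chain gene, with 0.6 and 0.83 RPKM against 24.4 and 33.3 RPKM (log2 fold change 5.50 ± 0.76, adjusted p = 0.00253). Its most abundant member, Meig1, which is needed for the manchette and flagellum, stood at 462 and 448 RPKM against 931 and 954 RPKM (1.27 ± 0.48, adjusted p = 0.138). Of the axonemal dynein heavy chains none of 15 tested genes was called and the median was −0.18. Their fold changes ran from −0.60 for Dnahc17 to 1.73 for Dnahc3, with 8.04 and 3.04 RPKM against 12.5 and 18.0 RPKM (adjusted p = 0.188, edgeR), and Dnahc17 had 40.6 and 13.5 RPKM against 11.3 and 18.3 RPKM, so that 1 PND 21 mouse was above the others and 1 among them. These are among the longest transcripts, and the median of this family turned to 0.39 without PND 21 mouse 1 and to 0.07 with exon length as an offset.

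Genes for the manchette, head shaping and the nuclear envelope were called in 14 of 28 cases, all higher, with a median of 1.09. Spem1, needed to strip cytoplasm from the late spermatid, rose from 3.39 and 2.97 RPKM to 201 and 257 RPKM (log2 fold change 6.39 ± 0.86, adjusted p = 0.00228). Spatc1, the gene of speriolin at the centrosome, rose from 0.63 and 0.61 RPKM to 34.5 and 36.4 RPKM (6.03 ± 0.74, adjusted p = 0.00158). Both genes were near the counting limit at PND 21, with 14 and 19 and with 4 and 6 counts. Hook1, whose product anchors the manchette, rose less, from 32.7 and 21.0 RPKM to 57.1 and 60.6 RPKM (1.38 ± 0.22, adjusted p = 0.00358), and Sun5, which joins head and tail, from 9.02 and 9.63 RPKM to 59.8 and 46.6 RPKM (2.73 ± 0.48, adjusted p = 0.00713). Of these 4 calls that for Sun5 was lost, without either PND 21 mouse or PND 28 mouse 1 (adjusted p from 0.0703 to 0.1, edgeR).

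Sperm make energy with testis forms of common enzymes. Of 33 genes tested for sperm glycolysis and energy, 14 rose, none fell and the median was 1.07. Oxct2a, a testis enzyme of ketone body use, had no count in either PND 21 mouse and reached 13.8 and 16.7 RPKM at PND 28, at least 44.2-fold above the level of 3 counts in the shallower PND 21 mouse (adjusted p = 0.00143, edgeR). Its retained copy Oxct2b had 0 and 0.39 RPKM against 11.7 and 15.6 RPKM, and reads shared by these near-identical genes would not have been counted. Gapdhs, the sperm form of glyceraldehyde phosphate dehydrogenase, rose from 24.2 and 13.2 RPKM to 223 and 231 RPKM (log2 fold change 3.86 ± 0.92, adjusted p = 0.0298). Pgk2, the sperm phosphoglycerate kinase, rose from 156 and 165 RPKM to 495 and 635 RPKM (2.04 ± 0.38, adjusted p = 0.01). Every PND 28 mouse exceeded both PND 21 mice in these 4 genes. Ldhc, the sperm lactate dehydrogenase, was the most abundant of the list at both ages, with 1814 and 1916 RPKM against 3269 and 2994 RPKM, and was not called (0.97 ± 0.38, adjusted p = 0.153). Fabp9, a fatty acid binding protein of the sperm head, had 807 and 840 RPKM against 1763 and 1813 RPKM (1.34 ± 0.44, adjusted p = 0.0928), and Gstm5, a glutathione transferase, 502 and 754 RPKM against 1394 and 1402 RPKM (1.36 ± 0.38, adjusted p = 0.0544). Gapdhs lost its call without any 1 of the 4 mice (adjusted p from 0.102 to 0.183, edgeR), under library totals (0.0573) and by DESeq2 (0.066), Pgk2 without either PND 21 mouse or PND 28 mouse 2 (0.0673 to 0.0998), and Oxct2b without PND 21 mouse 1 (0.0527).

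Signalling and protein turnover genes were among the calls. Of 21 sperm kinases and phosphatases 8 rose (median 1.06) and of 28 postmeiotic ubiquitin and proteasome genes 14 rose (median 1.15), with none lower in either list. Tssk2, a testis serine kinase, rose from 14.9 and 13.1 RPKM to 179 and 185 RPKM (log2 fold change 3.92 ± 0.66, adjusted p = 0.00559), and Prkar2a, a regulatory subunit of protein kinase A that docks in the fibrous sheath, from 3.01 and 2.87 RPKM to 18.1 and 23.9 RPKM (3.05 ± 0.26, adjusted p = 0.000196). Fbxo39, an F-box protein gene, was at 0.15 and 0.38 RPKM and then 26.9 and 25.3 RPKM (6.67 ± 0.70, adjusted p = 0.000853). Asb17, of the ankyrin and SOCS box family, was at 2.08 and 1.27 RPKM and then 59.8 and 73.7 RPKM (5.57 ± 0.64, adjusted p = 0.00124). The ages did not overlap in any of the 4. Among 46 general proteasome subunits 2 rose (4.3%, against 7.37% of all genes tested) and the median was 0.05. The larger of the 2 rises was Psma6, a subunit of the core particle, from 164 and 171 RPKM to 401 and 532 RPKM (1.70 ± 0.23, adjusted p = 0.00181). Of the genes named here Tssk2 lost its call, without PND 21 mouse 1 or mouse 2 (adjusted p = 0.0678 and 0.0742, edgeR).

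Transcription regulators of spermatids rose in 9 of 24 cases, with a median of 0.97. Crem, the activator of postmeiotic promoters, rose from 24.7 and 29.4 RPKM to 64.7 and 54.0 RPKM (log2 fold change 1.35 ± 0.26, adjusted p = 0.00947). Fhl5, its coactivator ACT, rose further, from 9.7 and 7.64 RPKM to 138 and 213 RPKM (4.57 ± 0.69, adjusted p = 0.00285). Hmgb4, a high mobility group protein of late spermatids, rose from 21.8 and 17.4 RPKM to 493 and 519 RPKM (4.92 ± 0.79, adjusted p = 0.00462). None of these values overlapped between ages. Fhl4, a relative of Fhl5, was already at 722 and 643 RPKM and rose to 1405 and 1379 RPKM (1.26 ± 0.33, adjusted p = 0.0411), while Phf7, a reader of histone marks, moved from 628 and 661 RPKM to 1094 and 1036 RPKM without passing the test (0.94 ± 0.36, adjusted p = 0.145). The Crem call was lost without PND 21 mouse 1 or PND 28 mouse 1 (adjusted p = 0.0943 and 0.101, edgeR), Fhl5 without PND 21 mouse 2 (0.0557) and Hmgb4 without either PND 21 mouse (0.0605 and 0.071). Fhl4 was lost without any 1 of the 4 mice (0.132 to 0.198), under library totals (0.0838) and with the mouse number as a block (0.0659).

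Among 25 sperm ion channels and transporters, 6 rose (24.0%, against 7.37% of all genes tested), none fell and the median was 0.75. Atp1a4, the sodium pump subunit of sperm, rose from 13.8 and 6.79 RPKM to 125 and 151 RPKM (log2 fold change 4.01 ± 0.80, adjusted p = 0.0134), and Aqp7, a water and glycerol channel, from 4.64 and 3.33 RPKM to 39.0 and 39.7 RPKM (3.54 ± 0.40, adjusted p = 0.000916). Catsper4, of the calcium channel of the tail, rose from 11.3 and 6.11 RPKM to 52.1 and 57.9 RPKM (2.92 ± 0.59, adjusted p = 0.012). In each gene the PND 28 mice were both higher. Calls for Atp1a4 and Catsper4 were lost without any 1 of the 4 mice (adjusted p from 0.0602 to 0.128, edgeR), and Catsper4 also by DESeq2 (0.119). A list of multicopy spermatid genes, drawn up for the X and Y chromosomes, held 36 genes, of which 23 were tested. Of these 7 rose (30.4%, against 7.37% of all genes tested), and the median was 1.75. Of the tested genes 21 lay on X or Y, where 5 rose, and the other two rises, Cypt12 and Cypt4, lay on autosomes. Cypt12, of a family of cysteine-rich theca proteins, rose from 6.45 and 2.87 RPKM to 171 and 204 RPKM (5.62 ± 0.73, adjusted p = 0.00191); reads common to such copies are not held by unique counts, so the split between them is uncertain.

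Both protease families held rising genes and genes that were not called. Of 24 tested Prss genes, serine proteases, 8 rose (33.3%, against 7.37% of all genes tested) and none fell. Of 31 tested Adam genes, membrane metalloproteases, 9 rose (29.0%) and none fell. Prss37 went from 1.8 and 0.87 RPKM to 115 and 118 RPKM (log2 fold change 6.73 ± 0.51, adjusted p = 0.000196). Prss52 was at 0.24 and 0.61 RPKM and then 54.1 and 78.9 RPKM (7.33 ± 0.78, adjusted p = 0.000916). Prss51, its neighbour, had no count in either PND 21 mouse and 11.2 and 14.3 RPKM at PND 28. Prss51, Prss52 and Prss55, which all rose, lie within 38318 bases of chromosome 14 (mm9, chr14:64694275-64732592). A second group of 6 Prss genes lies within 66463 bases of chromosome 9 (mm9, chr9:110700670-110767132). Its log2 fold changes ran from −1.415 to 1.591, so those neighbours did not all rise. Prss51 lost its call without PND 21 mouse 1 or mouse 2 (adjusted p = 0.0506 and 0.0652, edgeR) and by DESeq2 (0.185), and Prss55 without PND 21 mouse 2 (0.0571).

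The 11 spermatid lists, that is all the sperm lists above other than the histone variants, the multicopy list and the protease families, held 306 listed genes. Of these 298 were tested, 125 rose (41.9%, against 7.37% of all genes tested) and none fell. The lists were chosen with earlier results of these data known, so this contrast only describes them and was not tested. The share differed with the mean level at PND 17. It was 73.1% of the 93 members under 1 RPKM there and 5.26% of the 19 at 100 RPKM or more. Over all genes tested those shares were 17.5% and 0.851%, so a difference in the same direction was not limited to these lists. Genes faint at PND 17 may have passed the expression filter only through the mice of another age. Part of the difference with level may therefore be fixed in advance, and that part was not tested.

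**Figure D3:**
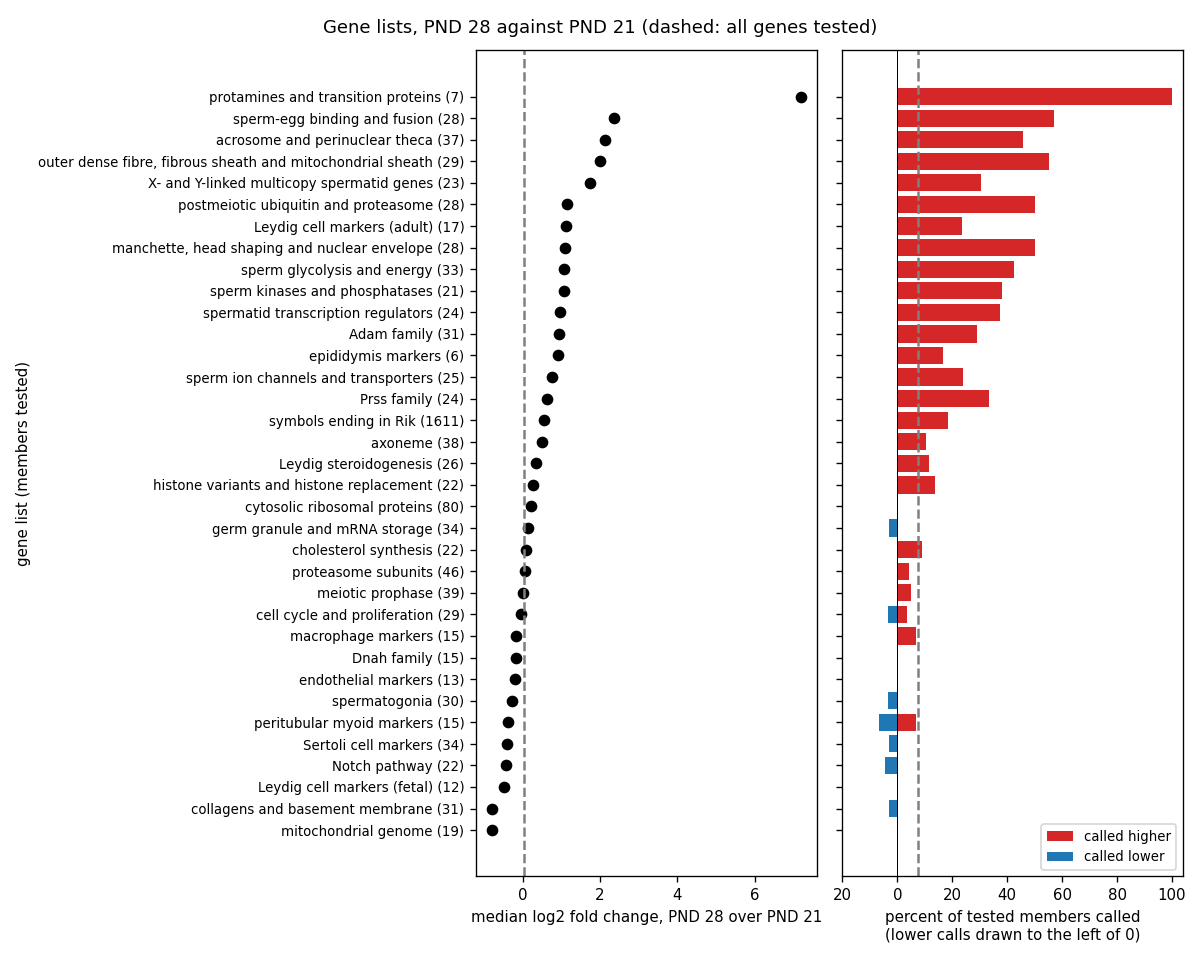
Left, median log2 fold change of PND 28 over PND 21 for each gene list, with the number of members tested in brackets; right, percent of tested members called higher (red, to the right of 0) or lower (blue, to the left). Dashed lines are the median and the percent higher over all genes tested; the protamine list stands at 7.20 with all 7 members called, and the Sertoli and collagen lists lie left of the line.

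Of 39 genes of meiotic prophase, from the earlier germ cells, 2 rose (5.1%, against 7.37% of all genes tested), none fell and the median was 0.01; it fell by 0.21 on the log2 scale under library totals, near the shift of all genes. Both belong to the central element of the synaptonemal complex, which holds paired chromosomes together. Syce2 rose from 20.3 and 21.6 RPKM to 45.0 and 56.3 RPKM (log2 fold change 1.49 ± 0.23, adjusted p = 0.00313), and Syce1 from 199 and 189 RPKM to 372 and 302 RPKM (1.02 ± 0.27, adjusted p = 0.0403). Sycp3, of the lateral element, overlapped between the ages with 217 and 235 RPKM against 167 and 216 RPKM. Of 30 tested spermatogonial genes 1 fell (3.3%, against 0.297% of all genes tested) and the median was −0.28. That gene was Foxo1, a factor of stem cell upkeep, with 6.55 and 3.51 RPKM against 1.51 and 2.03 RPKM (−1.26 ± 0.33, adjusted p = 0.0394). Among 34 germ granule genes 1 fell (2.9%, against 0.297% of all genes tested). It was Tdrkh, a tudor protein of the piRNA pathway, from 18.6 and 12.5 RPKM to 5.7 and 7.16 RPKM (−1.04 ± 0.25, adjusted p = 0.0294, edgeR). Syce1, Foxo1 and Tdrkh lost their calls without any 1 of the 4 mice (adjusted p from 0.0563 to 0.301, edgeR). Syce1 also did under library totals (0.0815), with the block (0.0654), with the length offset (0.0715) and, at folds under 2, in the fit of the 4 mice and without small RNAs. Foxo1 did with RLE scaling (0.052) and the block (0.0608), and Tdrkh fell under 2-fold with RLE scaling and by DESeq2. In whole testis, fewer cells of a type and less RNA per cell cannot be told apart, and the same holds for a rise.

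In the interstitium, a minority of the adult Leydig cell markers passed the test. Of 17 tested adult markers 4 were called higher (23.5%, against 7.37% of all genes tested) and none lower, with a median of 1.12. Cyp17a1, the enzyme that turns progestins into androgens, stood at 13.9 and 52.0 RPKM in the PND 21 mice and at 170 and 130 RPKM in the PND 28 mice (log2 fold change 2.35 ± 0.52, adjusted p = 0.0194). Cyp11a1, which cuts the cholesterol side chain, stood at 23.3 and 56.2 RPKM and then 151 and 124 RPKM (1.97 ± 0.48, adjusted p = 0.0293). The ages were apart for both, but PND 21 mouse 2 was more than 2 times above mouse 1. Insl3, a peptide hormone of Leydig cells, had closer mice, with 49.8 and 40.2 RPKM against 177 and 135 RPKM (2.03 ± 0.31, adjusted p = 0.00329). Fabp3, a fatty acid binding protein, went from 2.76 and 4.15 RPKM to 15.9 and 10.8 RPKM (2.14 ± 0.54, adjusted p = 0.0332, edgeR). All 4 were already present in the PND 7 mice. There Cyp17a1 stood at 26.71 and 19.65 RPKM, Cyp11a1 at 29.31 and 48.76 RPKM, Insl3 at 24.36 and 42.78 RPKM and Fabp3 at 8.62 and 5.255 RPKM. Insl3 lost its call without PND 21 mouse 2 (adjusted p = 0.0557, edgeR), and Fabp3 without any 1 of the 4 mice (0.0823 to 0.277), under library totals (0.0549), with the block (0.0532) and with the length offset (0.0881).

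Not every step of androgen synthesis passed the test. Of 26 tested steroidogenic genes 3 rose (11.5%, against 7.37% of all genes tested; median 0.34): Cyp17a1, Cyp11a1 and Hsd17b3, which makes testosterone, with 1.57 and 5.82 RPKM against 16.7 and 14.3 RPKM (log2 fold change 2.19 ± 0.52, adjusted p = 0.0254). Star, which carries cholesterol into mitochondria, had 4.34 and 12.8 RPKM against 21.5 and 15.5 RPKM (1.27 ± 0.59, adjusted p = 0.219), and Hsd3b6, an adult Leydig form of the enzyme that makes progesterone, overlapped with 16.1 and 35.7 RPKM against 41.9 and 17.8 RPKM. PND 21 mouse 1 was the lowest of the 4 mice in each of these 5 genes. In the PND 7 mice Hsd17b3 stood at 52.7 and 39.98 RPKM, above both PND 28 mice, whereas Hsd3b6 had no count. Without PND 21 mouse 1, PND 28 mouse 1 or PND 28 mouse 2, the adjusted p of Cyp17a1 became 0.0506, 0.135 and 0.0586, that of Cyp11a1 0.17, 0.181 and 0.0831, and that of Hsd17b3 0.118, 0.163 and 0.082 (edgeR). None of 12 tested fetal Leydig markers was called (median −0.47). Of 22 cholesterol synthesis genes 2 rose (9.1%, near the 7.37% of all genes tested): Cyp51, lanosterol demethylase, from 11.6 and 14.8 RPKM to 30.9 and 33.2 RPKM (1.49 ± 0.22, adjusted p = 0.0029), and Fdft1, squalene synthase, from 25.6 and 18.3 RPKM to 42.7 and 40.8 RPKM (1.17 ± 0.31, adjusted p = 0.0443). Fdft1 lost its call without any 1 of the 4 mice (adjusted p from 0.134 to 0.248, edgeR), under library totals (0.105) and without small RNAs and mitochondrial genes (0.0544).

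Of 34 tested Sertoli cell genes 1 was called, and it fell (2.9%, against 0.297% of all genes tested). The fold change was below 0 for 28 of them (82.4%, against 48.6% of all genes tested), with a median of −0.39. Shbg, which encodes the androgen binding protein, fell from 13.9 and 13.8 RPKM to 3.51 and 4.85 RPKM (log2 fold change −1.53 ± 0.29, adjusted p = 0.00775). Amh, the anti-Müllerian hormone of immature Sertoli cells, stood at 3.18 and 3.22 RPKM against 0.76 and 0.95 RPKM (−1.70 ± 0.62, adjusted p = 0.128). Both genes were lower in each PND 28 mouse, and the Shbg call was lost without PND 21 mouse 2 or PND 28 mouse 1 (adjusted p = 0.0675 and 0.119, edgeR). The 3 most abundant Sertoli genes differed little: Defb19 had 301 and 414 RPKM against 285 and 290 RPKM, Cst9 had 266 and 483 RPKM against 284 and 266 RPKM, and Ctsl had 226 and 256 RPKM against 176 and 200 RPKM. The median of the list stayed below 0 in every alternative run, from −0.61 to −0.18.

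Of 31 tested collagen and basement membrane genes 1 was called, and it fell (3.2%, against 0.297% of all genes tested). The fold change was below 0 for 30 of the 31 (96.8%, against 48.6% of all genes tested), with a median of −0.79. The called gene was Col18a1, the collagen that holds endostatin, from 6.54 and 8.87 RPKM to 1.9 and 2.87 RPKM (log2 fold change −1.50 ± 0.34, adjusted p = 0.0193). Sparc, a matrix glycoprotein, was the most abundant with 133 and 212 RPKM against 118 and 135 RPKM. The median of this list ranged from −1.21 to −0.41 over the alternatives. Of 22 Notch pathway genes 1 fell (4.5%, against 0.297% of all genes tested), and the median was −0.43. It was the receptor Notch1, with 1.99 and 1.2 RPKM against 0.26 and 0.44 RPKM (−1.97 ± 0.48, adjusted p = 0.0285, edgeR). Of 29 cell cycle genes 1 fell and 1 rose (3.4% each, against 0.297% lower and 7.37% higher of all genes tested). Mcm3, a part of the replication helicase, fell from 14.2 and 12.8 RPKM to 3.11 and 5.28 RPKM (−1.48 ± 0.32, adjusted p = 0.0157, edgeR). Ccnd3, a D-type cyclin, rose from 2.46 and 4.83 RPKM to 15.3 and 9.11 RPKM (1.92 ± 0.47, adjusted p = 0.0297, edgeR). Each of these 4 calls was lost when 1 mouse was left out: Notch1 and Ccnd3 without any 1 of the 4 mice (adjusted p from 0.053 to 0.276, edgeR), Col18a1 without PND 21 mouse 2 or either PND 28 mouse (0.0565 to 0.216) and Mcm3 without either PND 21 mouse or PND 28 mouse 1 (0.075 to 0.184). Ccnd3 was also lost under library totals (0.0568) and with the block (0.0514).

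**Figure D4:**
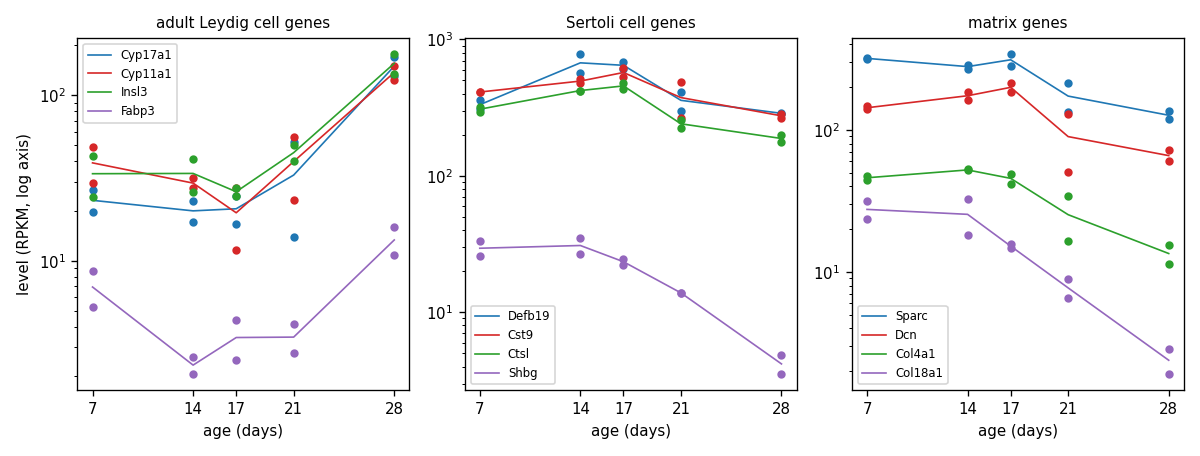
Level in RPKM (log axis) against age in days for 4 adult Leydig, 4 Sertoli and 4 matrix genes; points are single mice and lines join the means of the 2 mice at each age. Cyp17a1, Cyp11a1, Insl3 and Fabp3 are highest in the PND 28 mice, and Shbg and Col18a1 are lowest there.

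Marker lists of other cells held single genes that moved apart from the rest of their list. Of 15 macrophage markers 1 was called higher (6.7%, near the 7.37% of all genes tested). It was Aif1, an actin-bundling calcium binding protein, from 13.5 and 8.17 RPKM to 113 and 127 RPKM (log2 fold change 3.72 ± 0.65, adjusted p = 0.00544, edgeR). The other 14 ranged from −0.48 to 0.59. Of 15 peritubular myoid markers 1 rose and 1 fell (6.7% each, against 7.37% higher and 0.297% lower of all genes tested). Actg2, a smooth muscle actin, rose from 5.66 and 5.2 RPKM to 46.0 and 47.3 RPKM (3.32 ± 0.51, adjusted p = 0.0031, edgeR). Smtn, of contractile smooth muscle, fell from 1.1 and 0.71 RPKM to 0.21 and 0.18 RPKM (−1.92 ± 0.51, adjusted p = 0.0429, edgeR). Acta2, the usual myoid actin, had 43.4 and 63.8 RPKM against 32.9 and 40.8 RPKM and was not called (−0.34). No endothelial marker (13 tested) or red blood cell marker (3 tested) was called. Of 19 epididymis markers 13 were too low to test, and 1 of 6 was called higher (16.7%, against 7.37% of all genes tested). It was Cst8, a cystatin, from 11.3 and 11.3 RPKM to 148 and 203 RPKM (4.18 ± 0.51, adjusted p = 0.0012, edgeR). PND 28 mouse 1 held more counts of further epididymal genes than the other 3 mice: Gpx5, a secreted epididymal glutathione peroxidase, had 63 counts (4.32 RPKM) in it and 0 in each of the others, Adam7 had 41 counts and 0, and 8 of the 13 untested markers had a count in it, against 3 in PND 28 mouse 2, 1 in PND 21 mouse 1 and 0 in PND 21 mouse 2. Crisp1 was at 0.18 and 0.69 RPKM against 0.24 and 0.42 RPKM. Among the younger mice that entered only the fit, PND 17 mouse 1 had 2430 counts of Crisp1 and 174 of Adam7. PND 7 mouse 2 had 466 counts of Crisp1. The part of these mice in the shared spread was not tested. Cst8 was higher in PND 28 mouse 2, where Gpx5 and Adam7 were at 0, than in PND 28 mouse 1, and its call was kept without PND 28 mouse 1. The part of this epididymal signal in other results was not tested. Aif1 lost its call without PND 21 mouse 1 or mouse 2 (adjusted p = 0.0537 and 0.0799, edgeR), Actg2 without PND 21 mouse 2 (0.0533), and Smtn without any 1 of the 4 mice (0.0968 to 0.225), by DESeq2 (0.0577) and with the block (0.0654).

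Outside the lists, the 10 largest rises among genes averaging 10 CPM or more included Dydc2, with 0 and 0.22 RPKM against 24.2 and 38.8 RPKM, and Bpifa3, with 0 and 0.14 RPKM and then 20.2 and 18.5 RPKM. Hemgn, known from blood cells, had 1 count in each PND 21 mouse and 23.2 and 25.4 RPKM at PND 28. The largest falls included Abca2, a lipid transporter, from 4.29 and 2.53 RPKM to 0.66 and 1.21 RPKM, and Adamts9, a secreted protease of the matrix, from 1.71 and 1.28 RPKM to 0.47 and 0.43 RPKM (log2 fold change −1.50, adjusted p = 0.00712). The mice did not overlap in any of these. Bpifa3 lost its call without PND 21 mouse 1 or mouse 2 (adjusted p = 0.0532 and 0.0578, edgeR), Abca2 without either PND 21 mouse or PND 28 mouse 1 (0.0598 to 0.244) and Adamts9 without PND 21 mouse 1 or either PND 28 mouse (0.0629 to 0.0705). The 5 largest losses in RPKM were not called and included mt-Co1, a subunit of cytochrome oxidase, with 1390 and 1570 RPKM against 665 and 771 RPKM (−0.83 ± 0.26, adjusted p = 0.08).

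Gene classes differed too. Processed transcripts, a non-coding class of the annotation, rose in 99 of 575 cases (17.2%, median 1.15), against 1097 of 14900 protein-coding genes (7.36%, median 0.01), 22 of 464 lincRNAs and none of 25 miRNAs or 279 snoRNAs. Genes known only by Rik symbols rose in 296 of 1611 cases (18.4%). On the X chromosome 65 of 745 genes rose (8.72%, near the 7.37% of all genes tested), with a median of −0.17. Chromosomes 1 and 6 had larger shares, 8.94% and 9.23%. On X 7 genes fell (0.94%, against 0.297% of all genes tested).

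Short genes rose more often than long ones. Divided into 5 equal classes by exon length, 13.4% of the shortest and 3.94% of the longest genes were called higher, and the median log2 fold change went from 0.38 to −0.21. A trend with length was present between mice of the same age as well: the median log2 ratio of PND 21 mouse 1 over mouse 2 went from −0.25 in the shortest class to 0.21 in the longest, and that of the PND 28 mice from 0.09 to −0.10. The part of length in the calls was not tested beyond an offset for it, chosen after the data were seen, which gave 1153 higher and 75 lower genes.

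**Figure D5:**
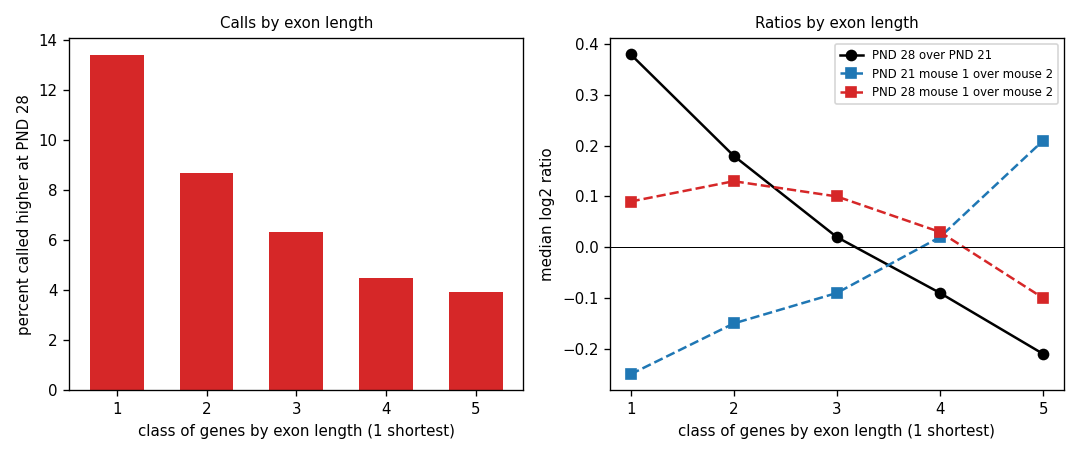
Left, percent of genes called higher at PND 28 in 5 equal classes of the tested genes by exon length (1 is the shortest); right, median log2 ratio in the same classes for PND 28 over PND 21 (black) and for mouse 1 over mouse 2 within PND 21 (blue) and PND 28 (red). The percent falls from 13.4 to 3.94, and the age ratio falls from 0.38 to −0.21 while the PND 21 mice differ from −0.25 to 0.21.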

How the data were processed

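Whole testes of C57BL/6NHsd mice, 2 at each of 5 ages, were used. Per the labels and the study's methods, total RNA was depleted of ribosomal RNA, fragmented with RNase III, sequenced on the SOLiD 4 platform and aligned with LifeScope to mm9. The authors filtered out ribosomal, transfer and repeat reads and deposited, for each of 37675 Ensembl genes, a count of uniquely aligned exonic reads. The deposited files also hold the RPKM that the authors made from those counts. Whether counting used strand is not given in the sources used here, so overlapping and antisense genes cannot be told apart. Only unique reads were counted, so genes with many near-identical copies read low: Gapdh stood at 1.68 and 0.51 RPKM at PND 21 and at 0.41 and 1.05 RPKM at PND 28. Every row named a gene.

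Each PND 7 mouse had 2 barcoded libraries, which were summed. The labels give an age and a number, and at PND 7 also a letter. That the numbers stand for different mice is taken from the study's methods. A gene was tested if it passed edgeR's expression filter, which kept 16860. Counts were fitted in edgeR 4.0.16 (R 4.3.3, trimmed mean scaling, quasi-likelihood test over all 10 mice with age as the only term; common dispersion 0.0726), and p-values were adjusted by Benjamini-Hochberg over all genes tested. Calls needed an adjusted p under 0.05 and a fold of at least 2. Fold changes are log2, with the SE of the fit. DESeq2 1.42.0, limma 3.58.1 on log2(RPKM + 1), the study's tool, with its p limit of 0.01 (taken here as unadjusted), a 2-fold change and a difference of at least 10 RPKM, and other settings served as alternatives. On simulated counts with 50 changed genes per size, 21, 33, 44 and 40 were recovered at log2 folds of 1.5, 2, 3 and 4, and 10 unchanged genes were called. Counting limits cover counting error only.

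The members and gene lists were chosen with earlier results of these data known. Genes were named by rule: the 10 largest rises and falls with a mean of at least 10 CPM and no overlap of ages, for each list the 3 largest rises, the 3 largest falls and the 3 highest levels, the 5 largest gains and losses in RPKM, and genes the study names. A selection of these is printed. Ace, Acr, Adam7, Amh, Bex2, Crem, Crisp1, Dnahc3, Gpx5, Hook1, Hsd3b6, Izumo1, Odf1, Pgk2, Prkar2a, Prss55, Smcp, Star, Sun5 and the promoter patterns were chosen after their values had been seen, as were the genes under the other observations. Promoter windows came from RefSeq (GRCm38.p6) by gene symbol. No small RNA result is drawn from these libraries beyond the class counts.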

Additional observations from a re-analysis of the deposited data

How the results depend on the processing

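All 1242 genes called higher kept a positive fold change in the settings that measured them, and no named gene reversed. Of the genes changed from PND 21 to PND 28, 1292 here, 1970 were called with no filter on low counts, 620 at an adjusted p under 0.01, 845 by limma on log2(RPKM + 1) and 523 with 0.1 added instead. Genes called higher numbered 822 under library totals, 821 and 512 by limma and 618 at an adjusted p under 0.01. Genes called lower, 50 here, numbered 33 with RLE scaling, 113 under library totals, 24 and 11 by limma, 289 with no filter, 178 when only the 4 mice were fitted, 93 without small RNAs and mitochondrial genes, 2 at an adjusted p under 0.01 and, in a fit added after the data were seen, 81 without PND 14 mouse 1 (1330 higher, 1411 in all). Of the 50 lower genes, 38 were also lower by DESeq2, 2 by limma with either pseudocount, where a difference of 10 RPKM was needed, and 0 to 8 when 1 PND 21 or PND 28 mouse was left out (0 without PND 28 mouse 1). With the mouse number as a replicate block, 1090 genes were higher and 33 lower. The labels do not say that same-numbered mice are paired. Deviations of same-numbered PND 21 and PND 28 mice correlated at −0.067, and over all pairs of ages from −0.17 to 0.343. With 2 mice at each age these values cannot show whether same-numbered mice share a batch. Leaving out 1 PND 21 or PND 28 mouse gave 312 to 579 calls, 295 to 560 higher and 4 to 19 lower; the lone mouse was then assumed to vary like the other groups. The lowest totals were without PND 21 mouse 2 (312) and mouse 1 (459). Of 109 called genes that were named by rule or printed, 65 and 69 were lost without PND 21 mouse 1 and mouse 2, and 49 and 43 without PND 28 mouse 1 and mouse 2. DESeq2 lost 17 and added 11. Medians of the germ granule, meiotic, cholesterol and proteasome lists fell below 0 under library totals, by 0.11, 0.21, 0.12 and 0.15 on the log2 scale; the macrophage median turned to 0.55 and the endothelial one to 0.10 without PND 21 mouse 2. Genes whose counts lie near 3 in each mouse could not be compared at this depth. The causes of these shifts were not tested.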

Other observations

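Several testis genes rose while the related gene used in other tissues did not pass the test in the same mice. Hspa1l, a testis heat shock protein, rose from 4.29 and 3.95 RPKM to 184 and 213 RPKM (log2 fold change 5.81 ± 0.79, adjusted p = 0.00181, edgeR), while Hspa8, the constitutive member of its family, stood at 120 and 119 RPKM against 77.3 and 110 RPKM (−0.14 ± 0.37, adjusted p = 0.861, edgeR). Oxct1, the general form of the ketone enzyme whose testis copies are Oxct2a and Oxct2b, had 12.8 and 14.8 RPKM against 17.7 and 19.9 RPKM (0.66, adjusted p = 0.118, edgeR). Aldoart1, a testis retrogene of aldolase, rose from 5.54 and 3.14 RPKM to 27 and 22.2 RPKM, and its parent Aldoa had 25.3 and 31 RPKM against 46.7 and 39.1 RPKM (0.82, adjusted p = 0.0738, edgeR). Aldoart1 lost its call without any 1 of the 4 mice (adjusted p from 0.108 to 0.219, edgeR), under library totals (0.0616) and by DESeq2 (0.206). The differences within these pairs were not tested.

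Some of the smallest adjusted p-values belonged to genes of no sperm list whose mice were close at both ages. Ccdc91, which encodes a partner of Golgi-associated sorting proteins, had 10.8 and 9.44 RPKM against 74.1 and 92.3 RPKM (log2 fold change 3.27 ± 0.23, adjusted p = 0.000176, edgeR). Prkcd, protein kinase C delta, had 1.11 and 1.08 RPKM against 18.2 and 22.5 RPKM (4.43 ± 0.31, adjusted p = 0.000176, edgeR). The uncharacterised 4921507P07Rik had 2.23 and 1.5 RPKM against 97.6 and 124 RPKM, and Tfam, the packaging factor of mitochondrial DNA, 5.06 and 4.25 RPKM against 29.6 and 39.4 RPKM. Spz1, a spermatogenic zip protein, also rose, with 32 and 33.8 RPKM against 489 and 594 RPKM (4.26, adjusted p = 0.0042, edgeR). Of the 10 genes called higher with no count in any younger mouse, 7 were non-coding and the others were Klk1b9, Ccr6 and Trem1. Calls for these 3 rested on few counts and were lost in at least 3 settings that left out a mouse (adjusted p from 0.181 to 0.258, edgeR), and that for Spz1 without either PND 21 mouse (0.0629 and 0.0619). These genes were chosen after their values were seen.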
